A study of Mus musculus with 2 samples.

Results

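Chemokines are small secreted or membrane-bound proteins that guide cells along concentration gradients by binding G protein-coupled receptors. Their names follow the spacing of the first pair of cysteines of the mature protein. These are adjacent in CC chemokines, separated by a single residue in CXC chemokines and by several residues in the CX3C chemokine. In the brain, Cx3cl1 on neurons signals to Cx3cr1 on microglia, Cxcl12 guides and places neurons, and the Ccl3 and Ccl4 genes of microglia respond to injury and amyloid. The 10 genes described here were chosen by symbol from this family (Ccl2, Ccl3, Ccl4, Ccl6, Ccl9, Cxcl10, Cxcl12, Cxcl14, Cxcl16 and Cx3cl1), with no measured value in the rule but with earlier results of these data known, and all 10 were found among the 55536 genes quantified.

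RNA came from the hippocampus, labelled as a layer of that tissue, of adult male mice of the strain 5xFAD/CAST, aged 8 to 10 months. The 5xFAD line expresses mutant human APP in neurons from the Thy1 promoter, and CAST is a wild-derived mouse background. Both libraries belong to 1 group, replicates 1 and 2, each made from 300 ng of RNA, and the labels give them the same donor identifier. Each SD below is therefore no more than the distance between these 2 libraries and may be technical. Transgene-free mice were not analysed here, so the levels are a description of this group and no comparison of conditions was made.

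The libraries held 26128897 and 28689423 expected counts. A gene with no reads could still hold up to 3 counts, equal to 0.115 and 0.105 CPM (counts scaled to library size). Such floors, and every p-value below, cover counting error only. Markers of microglia, neurons and astrocytes were all detected (8 of 8, 6 of 6 and 6 of 6 at 1 TPM or more in both libraries). Markers of neighbouring tissues were higher in replicate 1: choroid plexus markers summed to 1188 TPM there against 182 TPM in replicate 2, and striatum markers to 145 against 61.6 TPM. In bulk tissue, fewer cells of a type and less RNA per cell cannot be told apart.

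The coding sequence around the cysteine codons of this pair shows which subfamily each gene belongs to. The stretches below, given for 9 of the members, are read from the GENCODE M21 transcript that ends in 201. They run from 3 codons before the first cysteine codon of the pair to 3 codons after its second, with both in capitals. Any cysteine codons nearer the start of the coding sequence are not shown.
Ccl2: ccactcaccTGCTGCtactcattc
Ccl4: cccacttccTGCTGTttctcttac
Ccl6: tcttcagacTGCTGCttctcttat
Ccl9: tcttcagatTGCTGCctgtcctat
Cxcl10: acggtccgcTGCaacTGCatccatatc
Cxcl12: agctaccgaTGCcccTGCcggttcttc
Cxcl14: gggtccaagTGTaagTGTtcccggaag
Cxcl16: gctggaagtTGTtctTGTgatcgtacc
Cx3cl1: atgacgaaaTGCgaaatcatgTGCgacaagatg

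The 5 CC genes have no codon between the pair, the 4 CXC genes have 1 and Cx3cl1 has 3. Cxcl16 and Cx3cl1, known as chemokines made with a membrane anchor, have the longest coding sequences, of 246 and 395 codons. The other members range from 92 codons in Ccl3 and Ccl4 to 148 in Ccl2. Of the CC genes, Ccl6 and Ccl9 carry their pair furthest from the start, at codons 50 and 51 and at codons 57 and 58, against codons 34 and 35 in Ccl2, Ccl3 and Ccl4. In mm10 all 5 CC genes lie on chromosome 11, where Ccl9, Ccl6, Ccl3 and Ccl4 follow each other between positions 83572919 and 83664683.

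Transcripts of 9 of the 10 chemokines were present at 1 TPM (a level per transcript length, scaled to the same total in each library) or more in both libraries. Among the 13281 protein-coding nuclear genes detected, their mean levels ran from the 6.58th percentile (Cxcl10) to the 96.4th (Cx3cl1). The 10 genes summed to 262 TPM in replicate 1 and 268 TPM in replicate 2, and Cx3cl1 made up 54.2% ± 1.79 (SD, n = 2) of that sum. Cxcl14 added 22.3% ± 0.162, Ccl6 8.60%, Cxcl12 7.65% and Ccl3 3.21%. The median over the 10 genes was 6.03 ± 0.389 TPM (SD, n = 2).

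**Figure D1:**
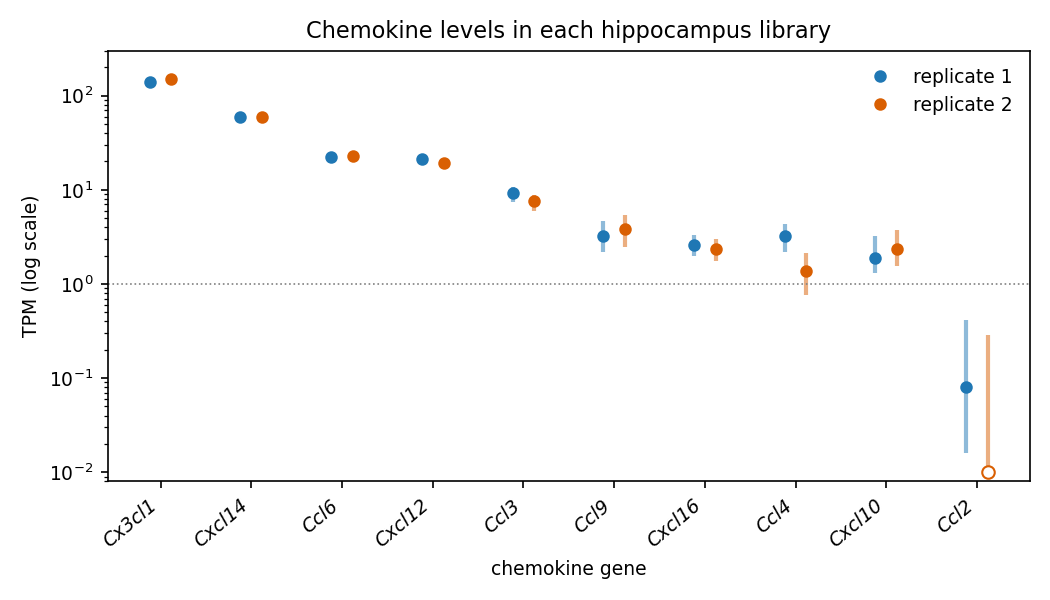
Level of each chemokine in TPM on a log axis, with replicate 1 in blue and replicate 2 in orange; bars are the credibility intervals deposited with each value, drawn from 0.01 TPM upward. Cx3cl1 stands at 139 and 149 TPM and Ccl2 at 0.08 and 0 TPM, the latter drawn as an open circle at the lower edge; the dotted line marks 1 TPM.

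Cx3cl1 (fractalkine) was the highest of the 10. Its gene lies on chromosome 8, positions 94772009 to 94782427 on the plus strand of mm10. Its level was 138.86 TPM in replicate 1 and 148.83 TPM in replicate 2 (144 ± 7.05, SD, n = 2), from 7665 and 8767 counts. The deposited intervals, 131 to 140 and 141 to 149 TPM, did not overlap between the libraries.

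Among the CXC genes, Cxcl14 was highest, at 58.89 and 59.62 TPM (59.3 ± 0.516, SD, n = 2). It encodes a chemokine known in brain from subsets of inhibitory interneurons, and lies on chromosome 13, positions 56288643 to 56296551 on the minus strand. The libraries differed by less than the width of either deposited interval, 54.3 to 59.5 and 55.1 to 60.2 TPM. Markers of interneurons of the Cck, Vip and neurogliaform kinds were present too, 6 of 6 at 1 TPM or more, summing to 311 and 367 TPM. Cck alone held 205 and 247 TPM of these sums, and the median of the 6 was 21.8 and 19.5 TPM. Which cells held these reads was not tested.

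Cxcl12 (stromal cell-derived factor 1) lies on chromosome 6, positions 117168535 to 117181367 on the plus strand. Its level was 21.44 TPM in replicate 1 and 19.11 TPM in replicate 2 (20.3 ± 1.65, SD, n = 2), from 1340 and 1342 counts. It is the second of the CXC genes. The deposited intervals, 19.3 to 22.0 and 17.3 to 19.7 TPM, overlapped.

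Ccl6 and Ccl9, neighbouring CC genes that rodents carry and that act on the receptor Ccr1, differed 6.94-fold and 6.02-fold in level in the respective libraries. Ccl6 (chromosome 11, 83587882 to 83593087, minus strand) stood at 22.56 and 23.06 TPM, from 398 and 421 counts. For Ccl9 (chromosome 11, 83572919 to 83578636, minus strand) the levels were 3.25 and 3.83 TPM (3.54 ± 0.410, SD, n = 2), from 127 and 144 counts. The spread between the libraries was small against the distance between these 2 genes.

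Ccl3 and Ccl4, the macrophage inflammatory proteins 1-alpha and 1-beta, lie on opposite strands of chromosome 11, at 83647844 to 83649355 and at 83662584 to 83664683. Ccl3 was read at 9.35 and 7.67 TPM, from 113 and 99 counts. Ccl4 had 3.25 TPM in replicate 1 and 1.38 TPM in replicate 2 (2.32 ± 1.32, SD, n = 2), from 33 and 15 counts. Ccl3 was thus 2.88 times Ccl4 in replicate 1 and 5.56 times Ccl4 in replicate 2. Ccl3 was the higher in both libraries, while the ratio rested on few Ccl4 reads.

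Cxcl16 and Cxcl10 lay in the same low range as Ccl4. Cxcl16, a membrane-anchored chemokine that also binds oxidised lipoprotein (chromosome 11, 70453983 to 70459984, minus strand), stood at 2.62 and 2.36 TPM, from 90 and 87 counts. Cxcl10, a ligand of Cxcr3 that interferon induces (chromosome 5, 92346638 to 92348889, minus strand), stood at 1.91 and 2.34 TPM, from 32 and 34 counts. Both genes share exonic bases with a gene on the other strand, 18.3% of Cxcl16 with Zmynd15 and 5.91% of Cxcl10 with Art3. The libraries were made strand-specific, per the labels, but whether the counting used the strand is not stated, so reads from those stretches are uncertain.

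Ccl2, the ligand of Ccr2 that draws monocytes from blood (chromosome 11, 82035571 to 82037453, plus strand), had 1 count in replicate 1 and 0 counts in replicate 2. In replicate 2, where no read was seen, the limit that a count of 0 allows (3 counts) was 0.181 TPM. The deposited intervals reached up to 0.412 TPM in replicate 1 and 0.286 TPM in replicate 2, so Ccl2 stood below 1 TPM in both. Its receptor Ccr2 stood at 0.20 and 0.14 TPM. None of the 8 markers of monocytes and neutrophils reached 1 TPM in both libraries; they summed to 0.85 and 1.30 TPM, with Ly6g and Chil3 at 0 in both.

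In order of mean level the genes ran Cx3cl1, Cxcl14, Ccl6, Cxcl12, Ccl3, Ccl9, Cxcl16, Ccl4, Cxcl10 and Ccl2. The values of Ccl4 in the libraries spanned those of both Cxcl16 and Cxcl10, so these neighbours did not differ beyond their spread. The step from Ccl6 to Cxcl12 was 1.13-fold, and although 22.56 TPM, the lower value of Ccl6, lay above 21.44 TPM, the higher value of Cxcl12, their deposited intervals overlapped. Those of Ccl9 and Cxcl16 overlapped as well. Over protein-coding transcripts only, the order of Ccl6 and Cxcl12 was the reverse. Ccl6 then stood at 10.1 and Cxcl12 at 19.2 TPM from alignments, and at 8.31 and 17.2 TPM alignment-free. The steps from Cx3cl1 to Cxcl14, from Cxcl14 to Ccl6, from Cxcl12 to Ccl3 and from Ccl3 to Ccl9 were each over 2-fold and exceeded the spread. The last of these fell below 2-fold in the alignment-free table, where Ccl3 stood at 6.92 and Ccl9 at 4.54 TPM.

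The libraries were then compared with each other, for every gene with a mean of at least 20 counts, by an exact conditional binomial test (two-sided, Benjamini-Hochberg adjusted over 16971 genes). This compares the 2 libraries, not conditions. Ratios were scaled to the bulk of genes by TMM, which put the middle of all log2 ratios near 0. Scaling to the spike-ins in its place moved the median to 0.27 and called 59.1% of all genes at an adjusted p under 0.05. Counts of genes called under spike-in scaling below stand against that share. Directions below are relative to the bulk of genes unless spike-in scaling is named. Of the 9 chemokines tested, 1 was lower (Ccl4) and 1 was higher (Cx3cl1) in replicate 2 at an adjusted p under 0.05, against 18.4% of all genes. More than 2-fold apart was 1 of the 9 (Ccl4), against 2.00% of all genes. With 9 genes, 2 calls are near the background share.

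Ccl4 fell by 1.24 on the log2 scale from replicate 1 to replicate 2, or 2.36-fold (adjusted p = 0.0252, exact conditional binomial test). Ccl3, its neighbour, had a log2 ratio of -0.32 (adjusted p = 0.297). Microglia markers summed to 571 and 558 TPM, with 2 of 8 lower and none higher in replicate 2, but 5 of 8 higher under spike-in scaling. Border macrophage markers summed to 6.91 and 5.06 TPM, with 2 of 3 tested lower (1 of 3 under spike-in scaling). T and NK cell markers summed to 1.55 and 0.72 TPM, with 0 of 8 at 1 TPM or more in both and Cd3d at 0 from alignments. In the alignment-free table Cd3d had 59.1 and 45.9 counts, or 1.76 and 1.36 TPM. The 1 marker of that list tested, Cd4, was lower in replicate 2, at 43 and 9 counts (log2 ratio -2.32, adjusted p = 8.28e-06, exact conditional binomial test). The part of these cells, and of the choroid plexus and striatum RNA above, in the Ccl4 difference was not tested.

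Cx3cl1 rose by 0.07 on the log2 scale, 1.05-fold (adjusted p = 0.0253, exact conditional binomial test), the smaller of the called differences, at the highest count of the members. The call was lost when counts were scaled by library size (log2 ratio 0.06, adjusted p = 0.0580), and the ratio was 0.33 under spike-in scaling. Neuron markers summed to 1866 TPM in replicate 1 and 2152 TPM in replicate 2, with 4 of 6 higher and 1 lower in replicate 2. Dentate granule cell markers summed to 142 and 153 TPM, with 3 of 5 higher. The part of neuron content in the Cx3cl1 difference was not tested.

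The 7 members not called lay between -0.32 (Ccl3) and 0.05 (Ccl9) on the log2 scale. Cxcl12 had a log2 ratio of -0.13 (adjusted p = 0.1004), which turned to 0.14 under spike-in scaling. Endothelial markers summed to 104 and 97.7 TPM, with 3 of 6 lower in replicate 2 but 1 of 6 higher and none lower under spike-in scaling. Mural and meningeal fibroblast markers summed to 117 and 105 TPM, with 4 of 7 lower, or 2 higher and 2 lower under spike-in scaling. The part of vascular cells in the Cxcl12 value was not tested. Cxcl14 (-0.02), Cxcl10 (-0.04) and Ccl6 (-0.05) were nearest to 0, although Cxcl14 stood at 0.25 under spike-in scaling. Over the 9 genes the median size of the log2 ratio was 0.07, against 0.12 over all genes tested.

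**Figure D2:**
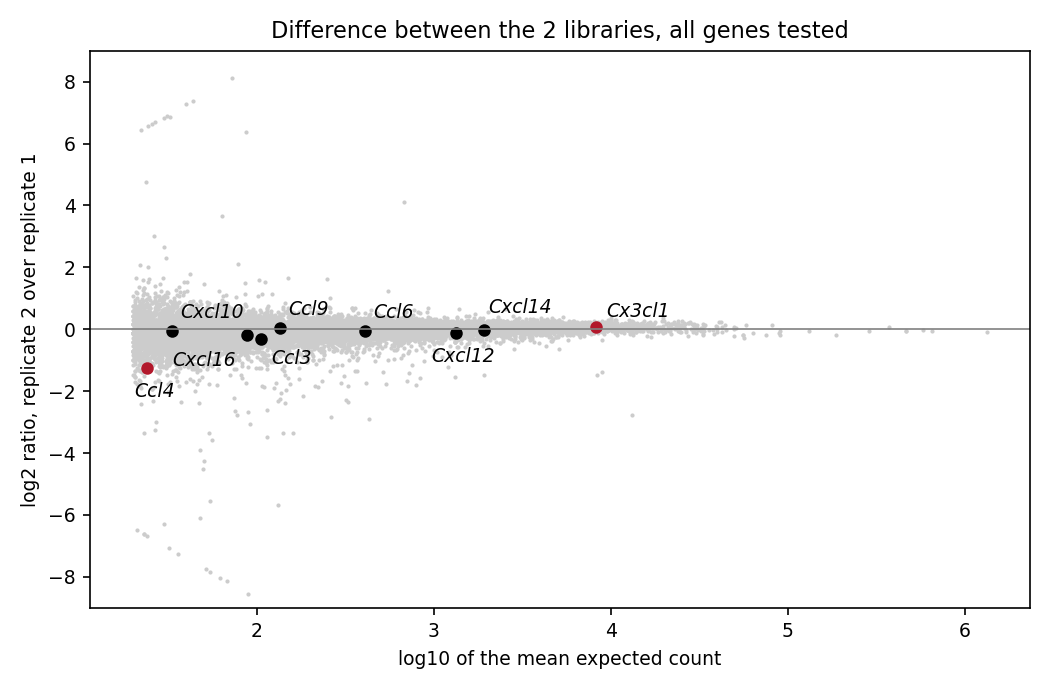
Log2 ratio of replicate 2 over replicate 1 against log10 of the mean expected count for 16971 genes (grey), with the 9 chemokines tested labelled; red points have an adjusted p under 0.05 and black points do not. Ccl4 lies at -1.24 at a low count and Cx3cl1 at 0.07 at a high count.

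The annotated transcripts of each gene were quantified in 2 ways, from alignments and by an alignment-free method. Of the 8 chemokines with several annotated transcripts, 7 had reads in every table, and for 6 the leading transcript was the same one in each table and library. Ccl3 and Ccl4 have 1 transcript each. Cxcl14 came almost wholly from Cxcl14-201, at 100% of its TPM from alignments and 99.4% ± 0.801 (SD, n = 2) alignment-free.

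Cxcl12 was the member divided between several protein-coding transcripts. They share their first 267 coding bases and differ at the end, which is shown from codon 84, with the bases that belong to that transcript alone in capitals and the stop codon left out.
Cxcl12-201: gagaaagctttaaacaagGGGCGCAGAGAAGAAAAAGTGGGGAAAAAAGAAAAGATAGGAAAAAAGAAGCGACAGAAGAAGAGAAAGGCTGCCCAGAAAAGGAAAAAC
Cxcl12-202: gagaaagctttaaacaag
Cxcl12-203: gagaaagctttaaacaagAGGCTCAAGATG

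The shortest form, Cxcl12-202 with 89 codons, corresponds to the alpha isoform, Cxcl12-203 with 93 codons to the beta isoform and Cxcl12-201 with 119 codons to the gamma isoform, whose basic tail is known to hold it on heparan sulfate. From alignments, the gamma form held 38.55% of the gene's TPM in replicate 1 and 45.05% in replicate 2, and the alpha form 42.5% and 41.89%. The ranges overlapped, and the leading form was alpha in replicate 1 and gamma in replicate 2, in both tables. Alignment-free, the gamma form held 48.0% ± 4.29 and the alpha form 45.7% ± 2.70 (SD, n = 2).

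The beta form differed between the methods, at 11.01% ± 1.30 from alignments and 1.79% ± 0.158 alignment-free (SD, n = 2). Of the 3132 bases of Cxcl12-203, 3 lie outside the exons of Cxcl12-201, which is 5627 bases long. Reads that lie wholly in exons common to both, and cross no junction where they differ, do not tell these transcripts apart. The retained-intron transcript Cxcl12-204 held 4.99% ± 2.87 and 4.46% ± 1.43 in the respective tables (SD, n = 2).

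Ccl6 was the one member whose leading transcript by TPM was not protein-coding. Ccl6-202, annotated as a retained intron, held 51.8% ± 0.905 from alignments and 65.1% ± 3.12 alignment-free, and the coding Ccl6-201 held 44.3% ± 1.82 and 33.8% ± 3.60 (SD, n = 2). By counts the order was the opposite, since the coding transcript is longer (1440 against 776 bases): alignments gave it 250 and 258 counts against 145 and 154. Only 71 bases of Ccl6-202 lie outside the exons of Ccl6-201.

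For Cx3cl1, the coding Cx3cl1-201 held 93.9% ± 0.0566 of the TPM from alignments and 72.4% ± 0.103 alignment-free (SD, n = 2). The difference lay mostly in Cx3cl1-203, annotated as a target of nonsense-mediated decay. It was listed at 0 in both libraries from alignments and held 20.03% ± 0.110 alignment-free (SD, n = 2), at 31.2 and 35.4 TPM. Cx3cl1-203 is 780 bases long, of which 86 lie outside the exons of Cx3cl1-201. Its share depended on the method in both libraries alike.

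In Cxcl16 the coding Cxcl16-201 held 48.5% ± 4.24 from alignments and 48.2% ± 2.31 alignment-free (SD, n = 2). The decay target Cxcl16-202, which has no base outside the exons of Cxcl16-201, held 42.4% ± 8.61 and 29.2% ± 14.5, on 90 and 87 counts for the whole gene. Ccl9-201 held 67.1% ± 5.87 and 55.9% ± 1.52, the rest going to the short noncoding Ccl9-202 on 5.05 and 8.20 counts from alignments. Cxcl10-201 held 70.1% ± 3.68 and 85.8% ± 20.1 (SD, n = 2).

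**Figure D3:**
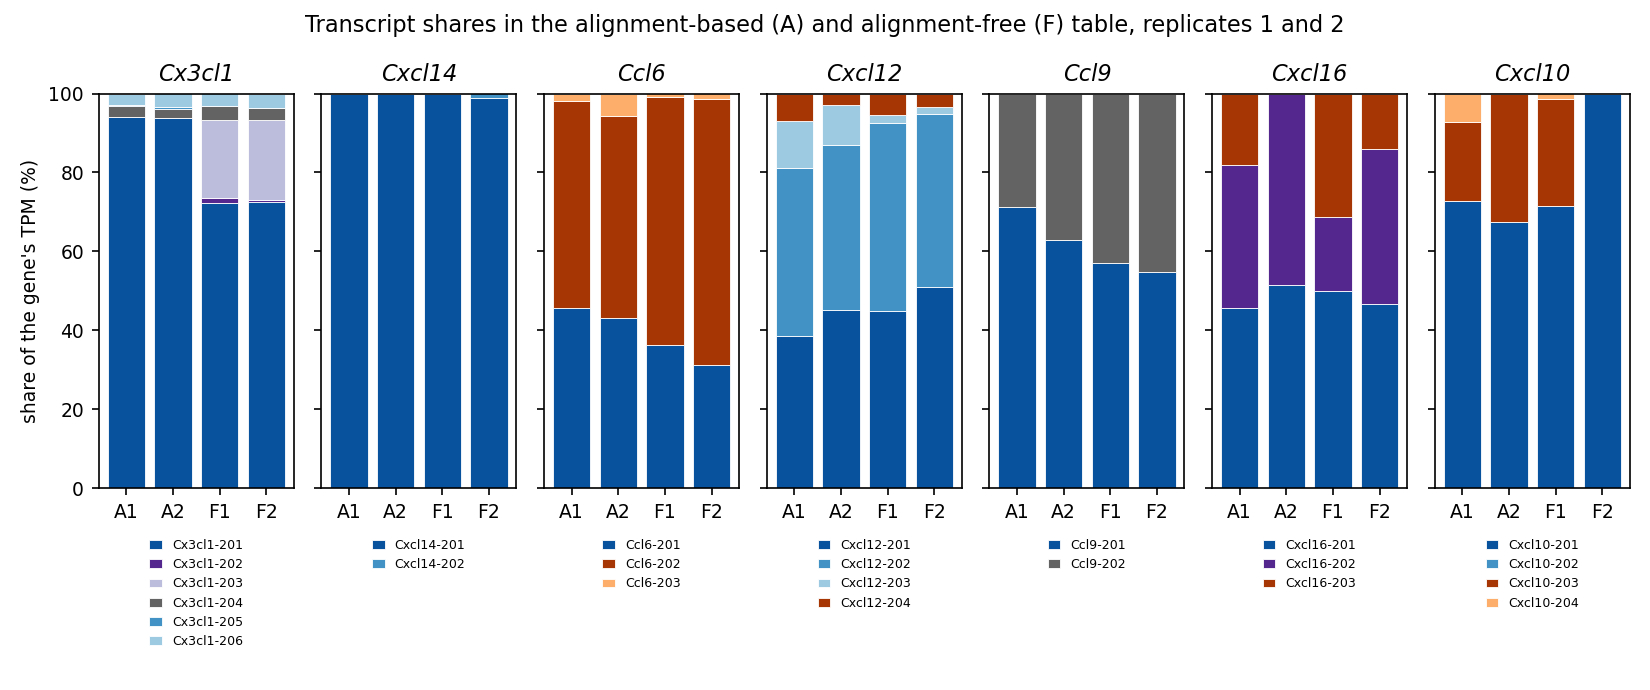
Share of each gene's TPM held by its annotated transcripts, in stacked bars for the alignment-based (A) and alignment-free (F) tables and replicates 1 and 2; blue marks protein-coding, orange and brown retained-intron, purple nonsense-mediated decay and grey other noncoding transcripts. Cx3cl1-203 takes 20.03% of Cx3cl1 in the alignment-free bars only, and Ccl6-202 takes the largest share of Ccl6 in all 4 bars.

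At gene level, the alignment-free counts of the members were a median of 1.14 ± 0.0171 times those from alignments (SD, n = 2), where protein-coding genes of at least 100 counts had medians of 1.15 and 1.14. Ccl3 was at 0.903 and 0.778 times, below the 5th percentile of those genes in both libraries (1.04 in each). Ccl4 lay below it in both libraries too, at 1.03 and 0.867 times, on 33 and 15 counts. Ccl9 was at 1.41 and 1.25 times, at their 97.5th and 91.1st percentiles. Of the 31-base words of Ccl9, 3.75% also occur in other genes, against 0% in Ccl3. Levels of Ccl3 and Ccl9 thus depended on the method, at 6.92 ± 1.38 and 4.54 ± 0.101 TPM alignment-free (SD, n = 2). Other levels moved as well: Cx3cl1 stood at 166 ± 14.0 TPM alignment-free, against 144 ± 7.05 TPM from alignments (SD, n = 2). Ccl6, at 24.7 TPM alignment-free, was also higher by that method. Over protein-coding transcripts only, both were lower alignment-free, Cx3cl1 at 126 against 140 TPM and Ccl6 at 8.31 against 10.1 TPM. At gene level Cxcl12, at 18.1 TPM, Cxcl14, at 57.4 TPM, and Cxcl16, at 2.27 TPM, were lower alignment-free.

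Ligands were set beside their receptors. Receptors for chemokines are G protein-coupled, apart from atypical receptors, which bind and clear ligands without that coupling. Of the 18 signalling receptors, 3 reached 1 TPM in both libraries, Cx3cr1 and Cxcr4 among them, and 4 were listed at 0 in both (Ccr4, Ccr8, Cxcr5 and Xcr1). Of the 5 atypical receptors, 2 reached 1 TPM in both (Ackr1 and Ackr3).

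Cx3cr1, the microglial receptor of Cx3cl1, stood at 49.41 and 46.61 TPM, and the ligand exceeded it 2.81-fold and 3.19-fold (3.002 ± 0.271, SD, n = 2). Cx3cr1 had a log2 ratio of -0.11 (adjusted p = 0.0105, exact conditional binomial test) and was the one signalling receptor of 3 tested that was lower in replicate 2, but stood at 0.15 (adjusted p = 5.5e-05) under spike-in scaling. Relative to the bulk of genes, the ligand was thus higher and its receptor lower in replicate 2. Relative to the spike-ins both were higher.

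Cxcl12 has a signalling receptor, Cxcr4, and a scavenging one, Ackr3. Cxcr4 stood at 1.86 and 2.44 TPM and Ackr3 at 3.77 and 5.10 TPM, so that Ackr3 was 2.03 and 2.09 times Cxcr4. Cxcl12 was 11.5 and 7.83 times Cxcr4. The ratio of the receptors varied less between the libraries than that of ligand to receptor. Cxcr4 rested on 47 and 62 counts, and whether this contrast exceeds counting error was not tested.

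Several further receptors were near the floor. Ccr1, which binds Ccl3, Ccl6 and Ccl9, stood at 0.08 and 0.06 TPM, Cxcr3, the receptor of Cxcl10, at 0.10 and 0.06 TPM, and Cxcr6, the receptor of Cxcl16, at 0.06 and 0.03 TPM. The ligands were 19.1-fold or more above these receptors, on receptor counts too few to give the ratio precisely. For Cxcl14 no receptor was listed. Cxcr2, a neutrophil receptor, had 0 and 1 counts from alignments but 110 and 140 alignment-free, and 7.70% of its 31-base words occur in other genes.

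**Figure D4:**
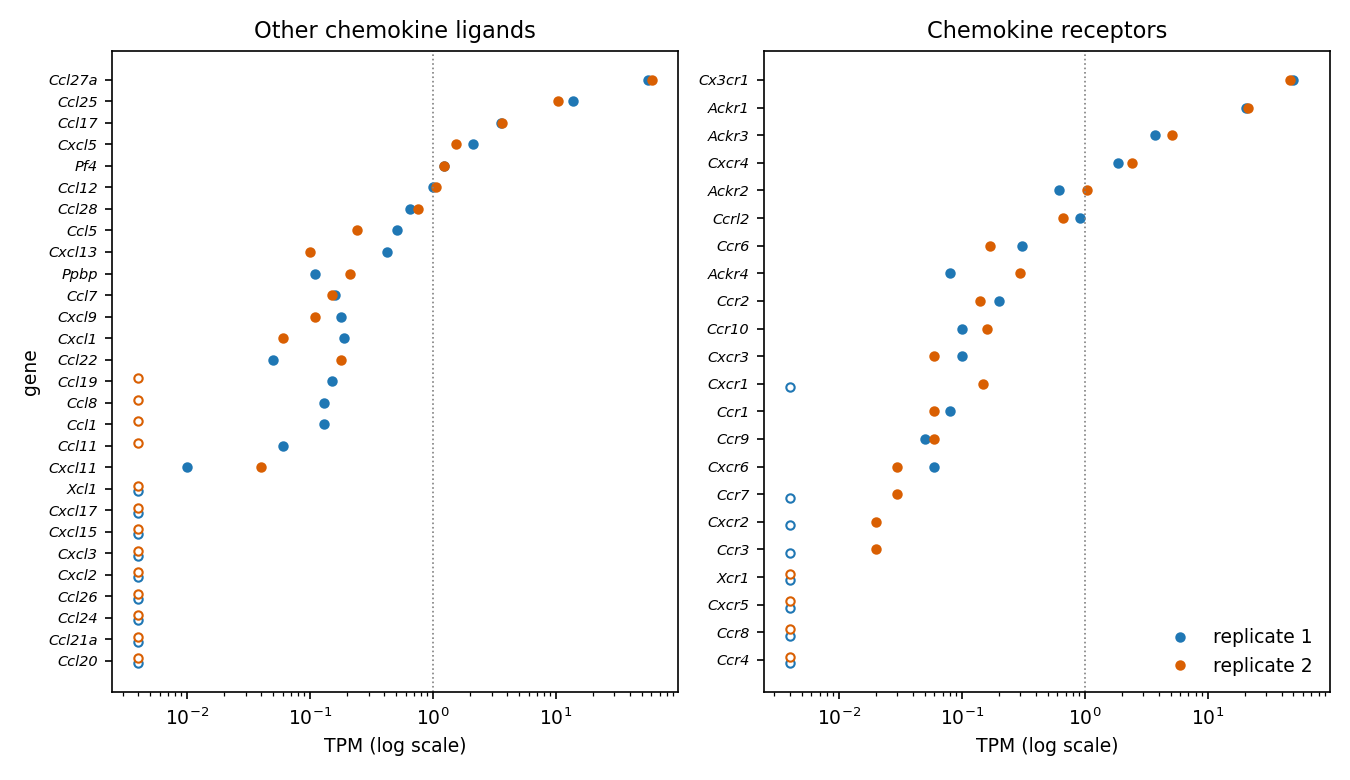
Levels in TPM on a log axis of the 28 other chemokine ligands (left) and of chemokine receptors (right), replicate 1 in blue and replicate 2 in orange; open circles at the left edge are genes listed at 0 and the dotted line marks 1 TPM. In both libraries 6 ligands reach 1 TPM, and Cx3cr1 is the highest of the receptors drawn.

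Most of the remaining chemokine family was low. Of 28 other ligands, 6 reached 1 TPM in both libraries and 9 were listed at 0 in both (Ccl20, Ccl21a, Ccl24, Ccl26, Cxcl2, Cxcl3, Cxcl15, Cxcl17 and Xcl1). Their median was 0.13 and 0.05 TPM, against 6.3 and 5.75 TPM for the 10 genes described here, which were chosen with levels in these data known. None of the 5 tested differed between the libraries in the exact conditional binomial test.

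Ccl27a, a skin-homing chemokine, stood at 56.69 and 60.94 TPM, but 57.0% of its 31-base words occur in Ccl27b and other copies, so its level is uncertain. Ccl25, a chemokine of thymus and gut, stood at 13.73 and 10.5 TPM. Ccl17 followed at 3.59 and 3.62 TPM, Cxcl5 at 2.11 and 1.54 TPM, the platelet chemokine Pf4 at 1.22 and 1.23 TPM, and Ccl12, a further Ccr2 ligand, at 1.01 and 1.06 TPM. Pf4 rested on 6 and 9 counts and Ccl12 on 8 and 9, and their deposited intervals reached below 1 TPM in both libraries. Ackr1 stood at 20.41 and 21.34 TPM, but 25.7% of its exonic bases belong also to Cadm3 on the same strand, so this level is uncertain too.

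Genes that act on chemokines or downstream of their receptors were present. Adam10, the protease that sheds Cx3cl1 and Cxcl16 from the membrane, stood at 27.73 and 31.9 TPM, and Adam17, which sheds them on stimulation, at 12.13 and 8.82 TPM. The Adam17 counts gave a log2 ratio of 0.08, against the direction of its TPM, and neither protease was called different between the libraries. Of 6 processing proteases, 3 reached 1 TPM in both libraries, and of 5 tested 1 was higher (Mmp9) and 1 lower in replicate 2. The lower one was Mmp2, a matrix protease that trims Cxcl12, at 3.92 and 1.21 TPM (log2 ratio -1.30, adjusted p = 2.28e-09, exact conditional binomial test). All 10 receptor signalling partners reached 1 TPM, led by Gnb1 at 294 and 298 TPM and Ptk2b at 259 and 322 TPM, with 2 higher and 1 lower in replicate 2 (8 higher and none lower under spike-in scaling).

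Targets of interferon and NF-kB, the signals known to induce Cxcl10, Ccl2 and Ccl4, reached 1 TPM in both libraries for 11 of 12 genes and summed to 75.7 and 70.4 TPM. Of 10 tested, 2 were lower and none higher in replicate 2, but 3 higher and none lower under spike-in scaling. Genes known from microglia at plaques reached 1 TPM for 12 of 12 and summed to 2358 and 2244 TPM. Apoe alone held 1791 and 1667 TPM of these sums, and the median of the 12 was 30.9 and 34.0 TPM. How much of the Apoe RNA came from microglia was not tested. Of the 12 tested, 1 was higher and 3 lower in replicate 2 (10 higher and 1 lower under spike-in scaling). Tnf, a cytokine of the first list, stood at 0.43 and 0.04 TPM, on 12 and 1 counts, too few to be tested.

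The promoter of Cxcl10 is shown because this gene is the textbook target of both signals, and its level here was low. The window runs from 250 bases before to 50 after the RefSeq start (GRCm38.p6, chr5:92348840-92349139, minus strand), with letters of the interferon-response pattern GAAANNGAA and of the NF-kB pattern GGNNTTTCC, searched on both strands, in capitals.
Cxcl10: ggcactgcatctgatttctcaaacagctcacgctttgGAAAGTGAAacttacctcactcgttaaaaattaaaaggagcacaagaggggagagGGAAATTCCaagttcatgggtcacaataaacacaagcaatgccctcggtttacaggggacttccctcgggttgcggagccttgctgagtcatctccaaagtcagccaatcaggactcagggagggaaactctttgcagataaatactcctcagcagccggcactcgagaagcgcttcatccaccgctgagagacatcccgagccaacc

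The first match begins 213 bases before the start and the second, on the reverse strand, 158 bases before it, and the 2 do not overlap. RefSeq windows were found for 7 of the 10 members. The interferon-response pattern occurred in 3 of the 7 (Ccl3, Cxcl10 and Cxcl14) and in 9.76% of 27025 genes. The NF-kB pattern occurred in 2 of the 7 (Ccl9 and Cxcl10) and in 6.62% of genes. A match describes letters in this window and is not a binding site, and the window of Cxcl10 was the only one of the 7 to hold both.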

How the data were processed

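Total RNA libraries were depleted of ribosomal RNA and given ERCC spike-ins, per the labels. The authors deposited expected counts, TPM and FPKM per gene with bounds of a credibility interval (level not stated), the percent of a gene's TPM per transcript, and estimated counts and TPM per transcript from an alignment-free method, per the file headers. These were made on mm10 with GENCODE M21, per text deposited beside every library; the aligner and quantifiers are not given in these sources. How reads from CAST alleles fared against this reference was not tested.

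The 10 members and the 20 gene lists were chosen with earlier results of these data known. The names used follow a rule: all members, receptors of each, other ligands and receptors at 1 TPM or more in both libraries, and the 3 highest of each list; not all are described. Tnf, Cd4, Mmp2, Mmp9 and Cxcr2, and genes listed at 0, were named after their values were seen. Counts were scaled by TMM (edgeR 4.0.16, R 4.3.3), with a prior count of 0.5 in log2 ratios for genes averaging 20 counts or more; the exact conditional binomial test used rounded counts (scipy 1.17.1). The 96 spike-ins and other entries that are no gene (26345 in all) stayed out of tests. The test was tried on simulated data for its recovery of changed genes, and its calls among unchanged genes were not counted there. DESeq2 1.42.0 size factors were an alternative. Shared 31-base words were counted over GENCODE transcripts. With 1 group of 2 libraries, no test between conditions was possible. Some items are not reported here.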

Additional observations from a re-analysis of the deposited data

How the results depend on the processing

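No paired analysis was possible because there is 1 group of 2 libraries. Taken over protein-coding nuclear genes only, the median level of the 10 chemokines was 13.3 TPM; the other scales gave 5.73 to 6.03 TPM, and single libraries 5.75 to 6.3 TPM. The number of members that differed between the libraries was 1 by library size (Cx3cl1 then had an adjusted p of 0.0580), 4 by spike-in scaling and 1 with a mean count of at least 100, which leaves Ccl4 out; DESeq2 size factors gave 2. Spike-in scaling moved the median log2 ratio of all genes to 0.27, and called 59.1% of genes; Cxcl12 then stood at 0.14 and Cxcl14 at 0.25, the opposite sign. The number more than 2-fold apart was 0 by spike-in scaling, 2 with no filter on low counts (Ccl2 added, on 1 count), 0 with at least 100 counts and 0 for TPM ratios with a pseudocount of 1. The alignment-free to alignment-based ratio was 0.989 for TPM in place of counts. Values that compare the libraries have no version without one of them. For Ccl4, Cxcl10 and Cxcl16, 15 to 90 counts a library limit precision.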
